A study of Mus musculus with 24 samples.

Results

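The comparison set the 4 RNA-seq libraries labelled Kat6a homozygous knockout against the 4 labelled Dlx5 homozygous knockout, which are 8 of the 24 libraries in the series. The libraries were picked by their genotype labels, and the question was which genes that depend on Kat6a are not changed alike by loss of Dlx5. Each library held polyadenylated RNA of pharyngeal arches 1 and 2 from female E10.5 embryos of the C57BL/6 strain. The Kat6a homozygous (Kat6a-/-, wild type for Dlx5) libraries all came from facility batch 2, the Dlx5 homozygous (Dlx5-/-, wild type for Kat6a) libraries all from batch 1, and the 4 wild type libraries all from batch 2, where a batch is 1 of 2 mouse facilities. The design text calls the 4 libraries of a genotype biological replicates. The 3 heterozygous genotypes (Kat6a+/-, Dlx5+/- and the double heterozygote) were the only ones with libraries from both batches, and the size of the batch effect was estimated from them. No comparison of the 2 homozygous groups within 1 batch exists. The labels do not describe the alleles or how many embryos went into a library.

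Kat6a, also called Moz, is a histone acetyltransferase that works in a chromatin complex with Brpf scaffold proteins, and it is known for keeping Hox and other developmental genes active. Dlx genes encode homeodomain transcription factors that lie in linked pairs, and nested Dlx expression along an arch gives upper and lower jaw their identity. Dlx5 and Dlx6 act in the lower part of the arch downstream of endothelin signalling, and Dlx1 and Dlx2 act along its whole length.

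Levels are given as CPM, a gene's counts divided by the TMM-scaled total of its library, and they are not corrected for gene length, so they are compared between libraries and not between genes. A fold change is on the log2 scale, from edgeR's quasi-likelihood test with a batch term over all 24 libraries, as Kat6a-/- labelled minus Dlx5-/- labelled unless stated. A gene counts as called where its p, adjusted by Benjamini-Hochberg across the 14506 genes tested, was under 0.05. Total counts were 11323153 to 13437510 in the 8 libraries and 10406452 to 28198111 over all 24. The arch mesenchyme markers summed to 1494 to 1792 CPM in Kat6a-/- labelled libraries, 1620 to 1783 CPM in Dlx5-/- labelled libraries and 1537 to 1863 CPM in wild type libraries, and all 9 passed the filter on low counts.

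By gene-level counts, neither targeted gene was called against wild type in the libraries labelled as its own knockout. Kat6a stood at 241, 238, 219 and 211 CPM in Kat6a-/- labelled libraries, 231, 249, 228 and 251 CPM in Dlx5-/- labelled libraries and 247, 203, 207 and 148 CPM in wild type libraries. These ranges overlap, and the difference of Kat6a-/- labelled libraries from wild type was 0.17 (adjusted p = 0.474, edgeR). Kat6b, the closest relative of Kat6a, differed between the homozygous groups by -0.14 with a 95% interval of -0.37 to 0.09, and by 0.02 with no batch term. Dlx5 stood at 67.4, 58.6, 57.6 and 66.5 CPM in Dlx5-/- labelled libraries and 64.6, 79.0, 64.5 and 69.1 CPM in wild type libraries, a log2 difference of 0.03 (adjusted p = 0.947, edgeR). A count over a whole gene cannot show a deletion of a part of it, and the labels are used here as given.

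Dlx5 itself was lower in the Kat6a-/- labelled libraries than in the Dlx5-/- labelled ones. Its levels in the Kat6a-/- labelled libraries were 42.4, 37.1, 37.4 and 34.5 CPM, below each of the 8 Dlx5-/- labelled and wild type values given above. The difference from the Dlx5-/- labelled libraries was -0.90 with a 95% interval of -1.12 to -0.67 (adjusted p = 6.27e-05, edgeR), and from wild type it was -0.87 (adjusted p = 1.47e-07, edgeR). Heterozygous libraries of batch 2, the batch of the Kat6a-/- labelled libraries, had 58.2 to 75.9 CPM.

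The member of the Dlx family with the largest fitted difference was Dlx6os1 (chr6:6820543-6871627 in GRCm38), a long noncoding RNA transcribed on the strand opposite to Dlx6 and overlapping it. It stood at 11.7, 9.57, 12.2 and 12.1 CPM in Kat6a-/- labelled libraries, 26.0, 23.8, 26.5 and 24.1 CPM in Dlx5-/- labelled libraries and 54.4, 43.2, 53.9 and 43.7 CPM in wild type libraries. The 3 groups did not overlap, with the Dlx5-/- labelled libraries in the middle. The difference between the homozygous groups was -1.29 with a 95% interval of -1.57 to -1.01 (adjusted p = 5.83e-06, edgeR). It was lower than wild type in both groups, at -2.10 in Kat6a-/- labelled libraries (adjusted p = 1.52e-13, edgeR) and -0.82 in Dlx5-/- labelled libraries (adjusted p = 0.0116, edgeR). No source used here states whether counting used strand, so reads of Dlx6os1 and Dlx6 cannot be told apart with certainty, and the same holds for Dlx1 with Dlx1as and Dlx4 with Dlx4os.

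Sequences around the start of transcription are shown for Dlx6os1, Emx2 and Dlx1, from the RefSeq promoter table for GRCm38.p6, each with 250 bases before and 50 after an annotated start. They show which of these called genes carry TAATTA, the core letters that Dlx homeodomains are known to bind. Capitals mark TAATTA, which reads the same on both strands. The first window is chr6:6869484-6869783 on the minus strand, the next is chr19:59458440-59458739 on the plus strand and the last is chr2:71529195-71529494 on the plus strand.
Dlx6os1: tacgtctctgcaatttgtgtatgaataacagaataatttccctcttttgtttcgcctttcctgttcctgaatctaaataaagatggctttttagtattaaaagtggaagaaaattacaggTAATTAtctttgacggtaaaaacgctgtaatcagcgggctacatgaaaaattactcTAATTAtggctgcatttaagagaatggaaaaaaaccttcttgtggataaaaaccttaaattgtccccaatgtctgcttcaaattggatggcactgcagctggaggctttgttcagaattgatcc
Emx2: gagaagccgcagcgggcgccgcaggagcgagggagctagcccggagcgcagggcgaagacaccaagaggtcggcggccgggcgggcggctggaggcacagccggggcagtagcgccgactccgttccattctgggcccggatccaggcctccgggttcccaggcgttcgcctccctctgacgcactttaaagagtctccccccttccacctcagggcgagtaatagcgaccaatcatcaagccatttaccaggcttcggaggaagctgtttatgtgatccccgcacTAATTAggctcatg
Dlx1: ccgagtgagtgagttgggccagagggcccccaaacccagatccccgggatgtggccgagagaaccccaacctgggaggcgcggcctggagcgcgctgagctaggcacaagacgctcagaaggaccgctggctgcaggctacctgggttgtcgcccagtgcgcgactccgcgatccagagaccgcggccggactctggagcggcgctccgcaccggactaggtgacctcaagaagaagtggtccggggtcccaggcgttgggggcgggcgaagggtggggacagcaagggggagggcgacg
The Dlx6os1 window held 2 copies, the Emx2 window 1, and the Dlx1 window none, and another annotated Dlx6os1 start had a window with 1 copy. Among the 59 called genes, 41 had a window in the table and 2 of these held the motif, Dlx6os1 and Emx2. That is 4.88% of them, beside 3.1% of the 11035 tested genes with a window and 6.12% of all 27025 genes with a window, tested or not. A match is letters in a window and not a bound site.

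Of the 9 tested members of the Dlx family list, 5 were called lower in Kat6a-/- labelled than in Dlx5-/- labelled libraries (Dlx1, Dlx3, Dlx4os, Dlx5 and Dlx6os1) and none higher. Over all genes tested, 0.303% were called lower and 0.103% higher. The list's median was -0.63, beside 0.00 over all genes. Dlx1 had 44.8, 40.8, 46.3 and 39.4 CPM in Kat6a-/- labelled libraries, 76.3, 67.7, 73.2 and 73.9 CPM in Dlx5-/- labelled libraries and 66.1, 60.6, 55.2 and 65.2 CPM in wild type libraries. The 3 groups did not overlap, and the Dlx5-/- labelled libraries were the highest. The difference between the homozygous groups was -0.79 with a 95% interval of -0.99 to -0.59 (adjusted p = 7.61e-05, edgeR). Against wild type Dlx1 was called lower in Kat6a-/- labelled libraries at -0.53 (adjusted p = 8.23e-05, edgeR), and it was not called in Dlx5-/- labelled libraries at 0.26 (adjusted p = 0.397, edgeR).

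Dlx3 had 56.5, 50.7, 62.4 and 50.9 CPM in Kat6a-/- labelled libraries, 75.5, 80.6, 81.0 and 69.0 CPM in Dlx5-/- labelled libraries and 94.1, 108, 101 and 98.3 CPM in wild type libraries. The groups again did not overlap, and here the Dlx5-/- labelled libraries lay between the others. The difference was -0.57 (adjusted p = 0.0189, edgeR). Dlx4os, the antisense partner of Dlx4, differed by -0.74 (adjusted p = 0.0248, edgeR).

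The other 4 members were not called between the homozygous groups. Dlx6, the linked partner of Dlx5, had a difference of -0.54 with a 95% interval of -0.82 to -0.26 (adjusted p = 0.068, edgeR), and Dlx2, the linked partner of Dlx1, had -0.28 with an interval of -0.52 to -0.03 (adjusted p = 0.417, edgeR). The intervals of Dlx4 (-0.90 to -0.01) and Dlx1as (-1.14 to -0.11) were wide. With no batch term Dlx6 was at -0.44 (adjusted p = 0.0274, edgeR) and Dlx2 at -0.35 (adjusted p = 0.0422, edgeR), and both were called. Dlx6 was called in 7 and Dlx2 in 2 of 38 other settings, and Dlx4 and Dlx1as in 0. Against wild type, 8 of the 9 members were called lower in Kat6a-/- labelled libraries, all but Dlx6, beside 1.06% of all genes. In Dlx5-/- labelled libraries 1 of 9 was called, Dlx6os1, beside 0.0551% of all genes, and that contrast rests on the batch term. Its intervals also lay below 0, without a call, for Dlx3 (-0.52 to -0.07), Dlx4 (-1.17 to -0.33), Dlx4os (-0.68 to -0.10) and Dlx1as (-1.15 to -0.17). That of Dlx1 (0.06 to 0.46) lay above 0. Dlx1, Dlx5 and Dlx6os1 were called between the homozygous groups in each of the 38 other settings of the analysis. The family count fell to 3 of 9 in 9 of these settings. They were the fits without 1 of the heterozygous groups, whichever it was, without Kat6a-/- labelled replicate 4, Kat6a heterozygous replicate 4, Dlx5 heterozygous replicate 4 or double heterozygous replicate 1, with the replicate number as a block, and without replicate 2 of the 4 groups where it is rich in neuronal RNA.

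**Figure D1:**
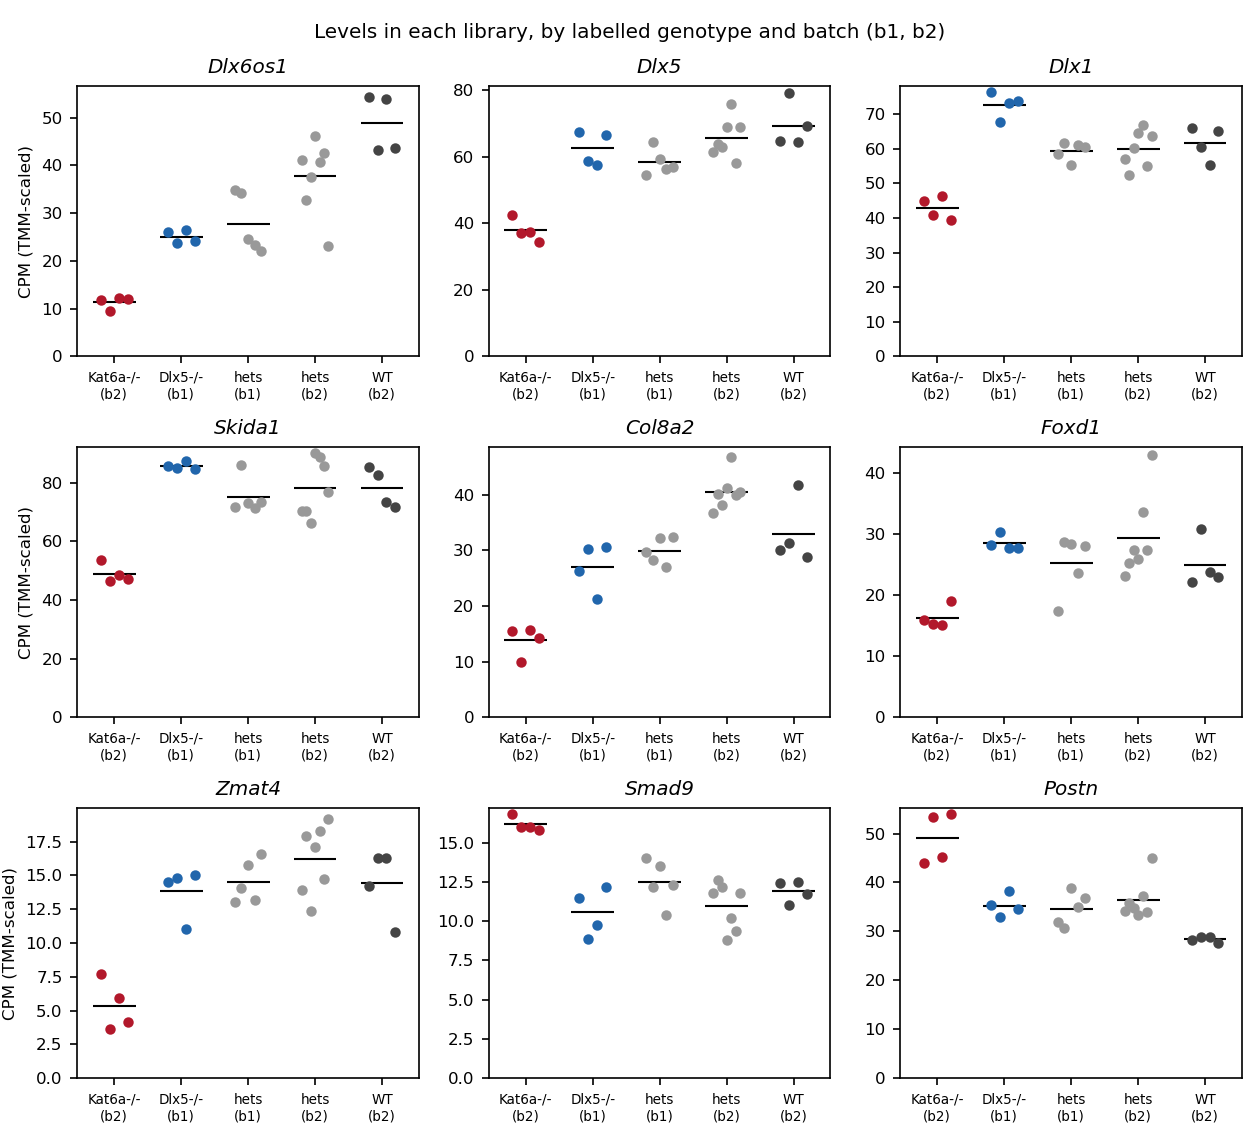
Scaled CPM of 9 genes (vertical axes, from 0) in single libraries, with Kat6a-/- labelled libraries left of Dlx5-/- labelled ones, then the heterozygous libraries of batch 1 and batch 2 and the wild type libraries. Points are libraries and bars are group means. Kat6a-/- labelled libraries are lowest for Dlx6os1, Dlx5, Dlx1, Skida1, Col8a2 and Zmat4, at or near the bottom for Foxd1, and highest for Smad9, while Postn is high in Kat6a-/- labelled libraries, intermediate in Dlx5-/- labelled ones and lowest in wild type.

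Over all genes, 59 were called between the homozygous groups, which is 0.407% of the 14506 tested, with 15 higher and 44 lower in Kat6a-/- labelled libraries. An unadjusted p under 0.05 was reached by 1435 genes. The median size of a called difference was 0.79 on the log2 scale, and 23 called genes differed by more than 2-fold. All 59 had groups that did not overlap once the fitted batch effect was removed, as did 2124 genes in all (14.6%). In the CPM as measured, 51 of the 59 did not overlap. The share over all genes was not counted for measured CPM. The 59 were picked for a difference between these groups, so the 51 add no support. The 8 that did were Ces1d, Tlx1, Nudt19, Foxp2, Cyp26b1, Col1a2, AI606473 and S1pr3.

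The genes with the lowest adjusted p were Skida1, Dlx6os1, Dlx5, Dlx1 and Col8a2. Skida1, which encodes a protein with a SKI/DACH domain, had 53.8, 46.4, 48.4 and 47.0 CPM in Kat6a-/- labelled libraries, 85.7, 84.9, 87.3 and 84.8 CPM in Dlx5-/- labelled libraries and 85.3, 82.7, 73.4 and 71.6 CPM in wild type libraries. Each Kat6a-/- labelled library lay below all 8 others, and the Dlx5-/- labelled and wild type ranges overlapped. The difference between the homozygous groups was -0.83 with a 95% interval of -0.99 to -0.67 (adjusted p = 1.38e-06, edgeR). Col8a2, a chain of collagen VIII, averaged 13.9 ± 2.66 CPM in Kat6a-/- labelled libraries, 27.1 ± 4.38 CPM in Dlx5-/- labelled libraries and 33 ± 5.95 CPM in wild type libraries (SD, n = 4 each). Its difference between the homozygous groups was -1.42 (adjusted p = 0.000135, edgeR), and it did not pass against wild type in Dlx5-/- labelled libraries at 0.18 (adjusted p = 0.738, edgeR).

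Emx2, a homeobox gene of the forebrain and limb girdle, had 11, 2.63, 13.0 and 7.22 CPM in Kat6a-/- labelled libraries, 23.8, 27.0, 23.7 and 25.1 CPM in Dlx5-/- labelled libraries and 21.1, 27.2, 22.6 and 24.6 CPM in wild type libraries. The Kat6a-/- labelled libraries varied among themselves by more than those of the other groups and still did not overlap them. The difference was -1.58 (adjusted p = 0.0367, edgeR). Osr1, a zinc finger gene of the palate mesenchyme list, differed by -1.48 (adjusted p = 0.045, edgeR) and by -1.04 with no batch term, where it was not called (adjusted p = 0.0638, edgeR), with 7.01, 3.39, 9.81 and 4.05 CPM in Kat6a-/- labelled libraries and 12.5, 15.4, 10.1 and 12.1 CPM in Dlx5-/- labelled libraries. Nr5a2, an orphan nuclear receptor, averaged 3.03 ± 0.517 CPM in Kat6a-/- labelled libraries and 6.01 ± 0.504 CPM in Dlx5-/- labelled libraries (SD, n = 4 each), a difference of -1.30 (adjusted p = 0.00629, edgeR). Bhlhe22, a neuronal helix-loop-helix repressor, differed by -2.20 (adjusted p = 0.0371, edgeR) at levels of 0.172 to 0.603 CPM in Kat6a-/- labelled libraries and 1.57 to 2.90 CPM in Dlx5-/- labelled libraries. Emx2 and Bhlhe22 were the 2 called lower of 13 tested brain and eye patterning genes, and none was called higher. The list median was 0.30, the other way, and 0.303% of all genes were called lower. Emx2 was called in 22 and Bhlhe22 in 23 of the 38 other settings. No member of the list was called in 10 of these settings.

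Forkhead genes of the arch mesenchyme were called lower for 3 of 11 tested members and higher for none, with a list median of -0.52. Over all genes, 0.303% were called lower and 0.103% higher, and the median was 0.00. Foxd1 had 15.9, 15.2, 15.1 and 19.0 CPM in Kat6a-/- labelled libraries, 28.2, 30.3, 27.6 and 27.6 CPM in Dlx5-/- labelled libraries and 22.1, 30.7, 23.7 and 22.9 CPM in wild type libraries. The homozygous groups were far apart. The Dlx5-/- labelled libraries lay below wild type replicate 2, at 30.7 CPM, and above the other wild type libraries. The difference was -1.20 with a 95% interval of -1.54 to -0.86 (adjusted p = 0.000279, edgeR). Its parts against wild type were -0.60 in Kat6a-/- labelled libraries (adjusted p = 0.00928, edgeR) and 0.60 in Dlx5-/- labelled libraries. The latter had an interval of 0.27 to 0.93 and did not pass (adjusted p = 0.226, edgeR). Foxc1, needed for skull and eye development, differed by -0.52 (adjusted p = 0.0413, edgeR) and Foxp2 by -0.62 (adjusted p = 0.0387, edgeR). With no batch term Foxp2 was at -0.25 and was not called (adjusted p = 0.471, edgeR). Foxd1 alone of the list was called in 14 of the 38 other settings, among them the fits without any 1 heterozygous group and without Kat6a-/- labelled replicate 2 or 4, Dlx5-/- labelled replicate 2, Kat6a heterozygous replicate 4, Dlx5 heterozygous replicate 2 or 4, or double heterozygous replicate 1, 2 or 3.

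Of the 22 tested genes of the collagen and matrix list, 1 was called lower, Col1a2, and none higher, and the list median was -0.03. The share called lower over all genes was 0.303%. Col1a2, a chain of collagen I, differed by -0.56 (adjusted p = 0.0448, edgeR), and by -0.14 with no batch term, where it was not called (adjusted p = 0.765, edgeR). The following called genes are outside that list and are described singly. Smoc2, a calcium-binding matricellular protein, had 6.18, 5.42, 11.4 and 4.67 CPM in Kat6a-/- labelled libraries and 17.6, 18.4, 13.3 and 17.6 CPM in Dlx5-/- labelled libraries, a difference of -1.63 (adjusted p = 0.0132, edgeR). Its relative Smoc1 averaged 78.3 ± 18.1 CPM in Kat6a-/- labelled libraries, 127 ± 2.96 CPM in Dlx5-/- labelled libraries and 154 ± 11.2 CPM in wild type libraries (SD, n = 4 each). The Smoc1 difference was -0.64 (adjusted p = 0.0401, edgeR). Col9a1, a cartilage collagen, differed by -0.50 (adjusted p = 0.0136, edgeR), and Sfrp1, a Wnt inhibitor, by -0.52 (adjusted p = 0.013, edgeR). Pdgfra, the PDGF receptor of arch mesenchyme, differed by -0.55 (adjusted p = 0.0401, edgeR). Apcdd1, another Wnt inhibitor, had 48.5 ± 7.20 CPM in Kat6a-/- labelled libraries and 65.4 ± 7.06 CPM in Dlx5-/- labelled libraries (SD, n = 4 each), a difference of -0.77 (adjusted p = 0.00408, edgeR). With no batch term Sfrp1 was at -0.32 (adjusted p = 0.0539, edgeR) and Apcdd1 at -0.43 (adjusted p = 0.0883, edgeR), and neither was called. Smoc1 and Apcdd1 fall outside the rule for named genes and were picked with their values in view.

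The retinoic acid pathway held members on either side, 1 higher and 2 lower of 16 tested, with a list median of -0.19. The shares over all genes were 0.103% higher and 0.303% lower. Cyp26c1, an enzyme that degrades retinoic acid, had 14.9, 17.6, 22.0 and 22.6 CPM in Kat6a-/- labelled libraries, 8.86, 9.18, 11.6 and 13.4 CPM in Dlx5-/- labelled libraries and 19.6, 9.89, 13.2 and 12.4 CPM in wild type libraries. The homozygous groups did not overlap, while the wild type libraries spanned parts of each. The difference was 1.38 (adjusted p = 0.0242, edgeR). Cyp26b1, its paralog with the same activity, went the other way at -1.14 (adjusted p = 0.0401, edgeR), with 6.94, 5, 8.52 and 5.72 CPM in Kat6a-/- labelled libraries and 13.0, 11.3, 8.25 and 9.67 CPM in Dlx5-/- labelled libraries, which overlap. Neither was called against wild type in either homozygous group. Crabp1, a cytoplasmic retinoic acid binding protein, differed by -0.60 (adjusted p = 0.0132, edgeR) and was also lower than wild type in Kat6a-/- labelled libraries at -0.42 (adjusted p = 0.00526, edgeR). With no batch term Crabp1 was called, while Cyp26c1 was at 0.84 (adjusted p = 0.09, edgeR) and Cyp26b1 at -0.69 (adjusted p = 0.135, edgeR), and neither of these was called. None of the list was called without the Dlx5 heterozygous or the double heterozygous group, or without Dlx5 heterozygous replicate 4 or double heterozygous replicate 1 alone. Crabp1 was the only one called without the Kat6a heterozygous group, with the replicate number as a block, and without Kat6a-/- labelled replicate 4, Dlx5-/- labelled replicate 2 or Kat6a heterozygous replicate 4.

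Among the 15 genes that were higher in Kat6a-/- labelled libraries was Smad9, a transducer of BMP signals. It stood at 16.8, 16, 16 and 15.8 CPM in Kat6a-/- labelled libraries, 11.5, 8.84, 9.73 and 12.2 CPM in Dlx5-/- labelled libraries and 12.4, 11, 12.5 and 11.7 CPM in wild type libraries. Each Kat6a-/- labelled value lay above all 8 others, and the difference was 0.82 (adjusted p = 0.00536, edgeR). Smad9 was the only one of 22 tested BMP pathway genes to be called, beside 0.407% of all genes. Tlx1, a homeobox gene of arches and spleen, differed by 1.02 (adjusted p = 0.0367, edgeR), but its measured levels of 12.6 to 20.3 CPM in Kat6a-/- labelled libraries and 9.20 to 15.1 CPM in Dlx5-/- labelled libraries overlapped. Without the batch term the Tlx1 difference was 0.46 and was not called (adjusted p = 0.389, edgeR).

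Stab2, a scavenger receptor of sinusoidal endothelium, had the largest higher difference among genes named by the rule. Its levels were 1.36, 2.37, 1.98 and 2.47 CPM in Kat6a-/- labelled libraries, 0.585, 0.944, 0.660 and 0.806 CPM in Dlx5-/- labelled libraries and 0.967, 0.736, 0.950 and 0.420 CPM in wild type libraries. The Kat6a-/- labelled libraries did not overlap the others, and the difference was 1.99 (adjusted p = 0.0145, edgeR). Beside it, the 8 endothelial markers summed to 352 to 411 CPM in Kat6a-/- labelled libraries and 319 to 325 CPM in Dlx5-/- labelled libraries. Of the 8, 1 was called higher, Cldn5, at 0.69 (adjusted p = 0.0314, edgeR). The share called higher over all genes was 0.103%. The 8 tested macrophage and leukocyte markers summed to 43.0 to 61.5 CPM in Kat6a-/- labelled libraries and 27.3 to 39.0 CPM in Dlx5-/- labelled libraries. None was called by edgeR, while 2 had an unadjusted p under 0.05 and DESeq2 and voom each called 1, Mpo. The sums include Mpo, and the median fitted difference of the 8 was -0.09, so they do not show a rise across the list. The part of endothelial cells or leukocytes in the Stab2 difference was not tested. In bulk RNA more cells of a type and more RNA per cell cannot be told apart.

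The other genes with large called differences belong to varied families. Sstr1, a somatostatin receptor, had 0.603, 0.339, 0.430 and 0.440 CPM in Kat6a-/- labelled libraries, 1.51, 2.40, 1.32 and 1.61 CPM in Dlx5-/- labelled libraries and 0.430, 1.88, 0.605 and 0.756 CPM in wild type libraries. The homozygous groups did not overlap at these low levels, and wild type overlapped both. Its fitted difference was -2.79 with a wide interval of -3.97 to -1.61 (adjusted p = 0.0267, edgeR), and -1.88 with no batch term (adjusted p = 0.0624, edgeR). Rbm24, an RNA-binding splicing regulator of muscle, differed by -1.64 (adjusted p = 0.0267, edgeR), Fibin by -1.27 (adjusted p = 0.0401, edgeR) and H2-Q7, a class I histocompatibility gene with close copies that make its count uncertain, by -1.21 (adjusted p = 0.0322, edgeR). On the higher side were Ces1d, a carboxylesterase, at 1.70 (adjusted p = 0.0448, edgeR), Ctnnd2, a neuronal catenin, at 0.88 (adjusted p = 0.0398, edgeR), Mcoln3, a cation channel, at 0.76 (adjusted p = 0.0469, edgeR) and Arhgap27 at 0.57 (adjusted p = 0.047, edgeR). With no batch term the calls of Rbm24 and Mcoln3 held. The differences then were -0.50 for Fibin (adjusted p = 0.524), -0.75 for H2-Q7 (adjusted p = 0.0746), 1.16 for Ces1d (adjusted p = 0.0542), 0.59 for Ctnnd2 (adjusted p = 0.0583) and 0.31 for Arhgap27 (adjusted p = 0.214), all by edgeR and none called.

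None of 9 endothelin pathway genes, 13 genes of the Kat6a complex and its relatives, 15 hedgehog genes, 18 FGF genes, 8 T-box genes, 4 anterior Hox genes or 15 cell cycle genes was called by edgeR. Of these 82 genes, 14 had an unadjusted p under 0.05 with edgeR, 3 were called by DESeq2 and 5 by voom. With 0.407% called over all genes, a count of 0 among 82 is near the background and is not a result about these lists. Mandibular patterning genes were called lower for 2 of 22, Foxc1 and Foxd1, and for 1 of them in 19 of the 38 other settings. Hand2, a Dlx5/6-dependent factor of the lower jaw, had a difference of 0.11 with a 95% interval of -0.19 to 0.40, and was picked with its values in view. The maxillary list held 1 called gene of 20, Lhx6, a LIM homeobox gene of the oral arch mesenchyme, at -0.68 (adjusted p = 0.0314, edgeR), with 71.4, 60.4, 57.4 and 59.5 CPM in Kat6a-/- labelled libraries, 94.5, 92.0, 92.7 and 88.8 CPM in Dlx5-/- labelled libraries and 64.0, 82.2, 61.6 and 71.3 CPM in wild type libraries. For Lhx6 the Dlx5-/- labelled libraries stood apart from the others, and neither homozygous group was called against wild type.

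**Figure D2:**
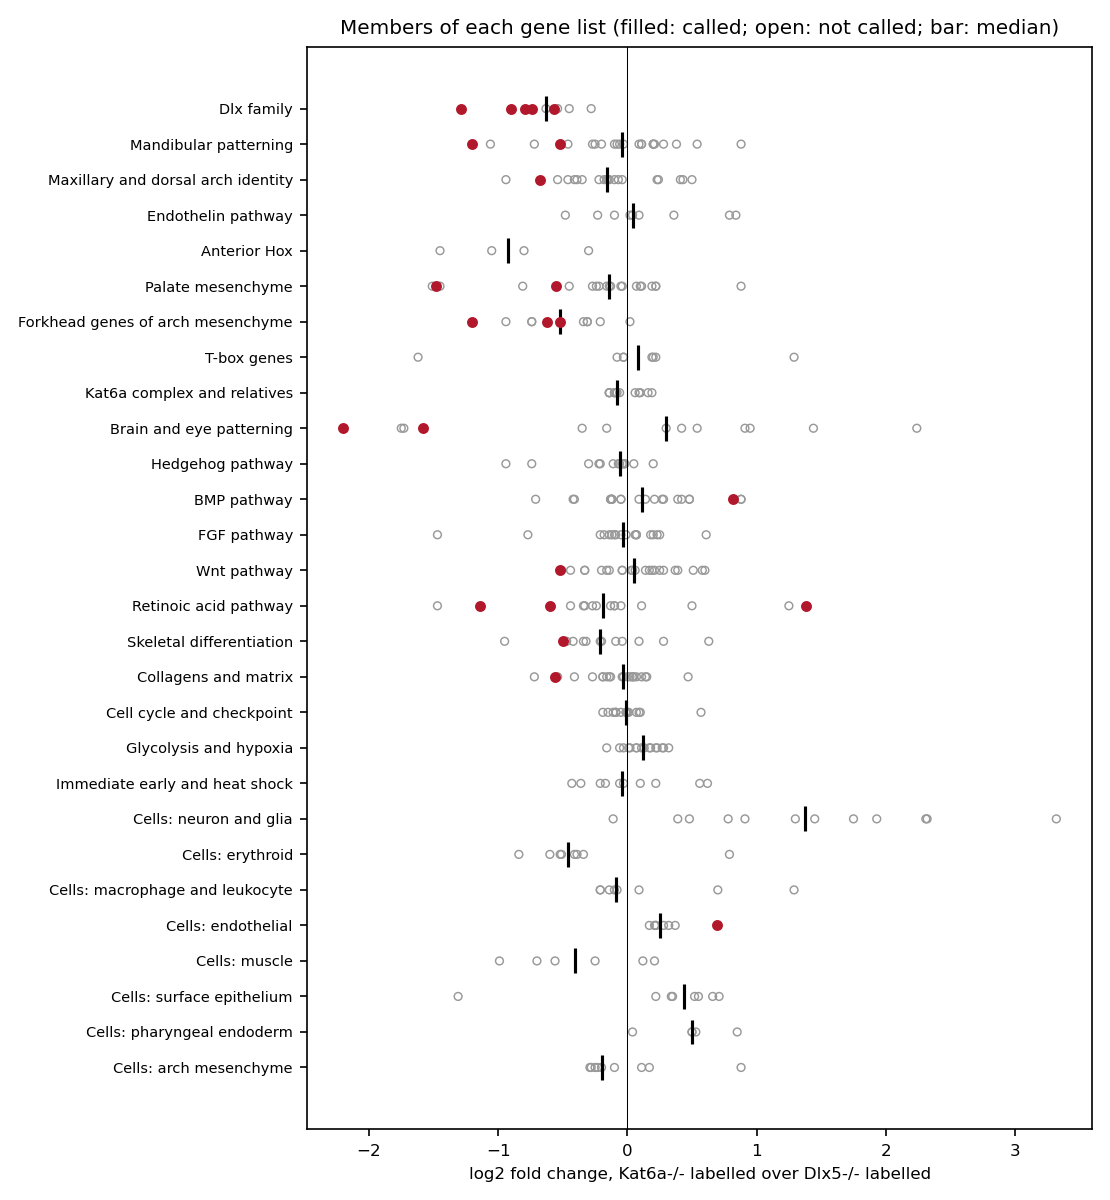
The log2 fold change of Kat6a-/- labelled over Dlx5-/- labelled libraries (horizontal axis) for every tested member of 28 gene lists (rows). Filled points were called, open ones were not, and bars are list medians. The Dlx family has 5 filled points, all below 0, and the neuron and glia list has the highest median, 1.37 (0.18 without Kat6a-/- labelled replicate 2), with none filled.

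Neuronal RNA differed between single libraries. The 12 tested neuron and glia markers summed to 55.1, 226, 68.8 and 90.3 CPM in Kat6a-/- labelled libraries, 53.1, 68.3, 49.6 and 55.6 CPM in Dlx5-/- labelled libraries and 62.8, 349, 67.7 and 64.4 CPM in wild type libraries. Replicate 2 of the Kat6a-/- labelled and wild type groups stood far above the rest. None of the 12 was called by edgeR, DESeq2 or voom, 2 had an unadjusted p under 0.05 with edgeR, and their median difference was 1.37. That median was 0.18 without Kat6a-/- labelled replicate 2, 0.68 without double heterozygous replicate 1 and 0.84 without the double heterozygous group. It was 0.10 with a neuron score as covariate. That score is built from these same markers, so a value near 0 there was fixed in advance. Without replicate 2 of the 4 groups where it is neuron-rich (Kat6a-/- labelled, Kat6a heterozygous, Dlx5 heterozygous and wild type), 31 genes were called, 27 of them among the 59. Not all neuron-rich libraries left this fit. Double heterozygous replicates 3 and 4, both of batch 1, had neuron scores of 1.55 and 1.60 and stayed in. Kat6a-/- labelled replicate 2, which was left out, had 1.40. With a neuron score as covariate 150 genes were called, and these held all 59.

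Against wild type, 222 genes were called in Kat6a-/- labelled libraries (1.53%), of which 68 were higher (0.469%) and 154 lower (1.06%). The count was 444 and 142 without wild type replicates 1 and 2, and 122 and 141 without Kat6a-/- labelled replicates 1 and 2. In Dlx5-/- labelled libraries 8 were called (0.0551%), while 1446 had an unadjusted p under 0.05 and DESeq2 called 38, and leaving out 1 library gave 0 to 16. The difference in these numbers is not a test, because the Dlx5-/- labelled libraries share no batch with wild type and rest on the batch term, while the Kat6a-/- labelled libraries share theirs. Of the 222 genes, 33 were also called between the homozygous groups with the same sign, 27 lower and 6 higher, and 0 with the opposite sign. That is 14.9% of the calls against wild type and 55.9% of the 59. The contrasts share the Kat6a-/- labelled libraries, so the 33 describe the overlap and add no independent support. For each of the 33, the call between the homozygous groups is itself the test that their effects against wild type differ. The 33 became 14, 10 and 13 without Kat6a heterozygous replicate 4, Dlx5 heterozygous replicate 4 or double heterozygous replicate 1, 18 without Dlx5-/- labelled replicate 2, and 21 and 17 without Kat6a-/- labelled replicates 2 and 4. All 33 had the same sign in a fit of batch 2 alone, where 24 passed against wild type. That fit reuses the same Kat6a-/- labelled and wild type libraries, so the signs were all but fixed in advance. It holds no Dlx5-/- labelled library and bears only on the difference from wild type.

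In 25 of the 33, the 95% interval of the Dlx5-/- labelled effect against wild type held 0, and 1, Dlx6os1, was called there. Such an interval leaves out 0 where the unadjusted p is under 0.05, which was so for 1446 of all 14506 genes. The 33 were picked for a difference from Dlx5-/- labelled libraries. An interval that holds 0 therefore does not show that loss of Dlx5 leaves a gene unchanged. Zmat4, a zinc finger gene, had 7.69, 3.64, 5.94 and 4.14 CPM in Kat6a-/- labelled libraries, 14.5, 14.8, 11 and 15.0 CPM in Dlx5-/- labelled libraries and 14.2, 16.3, 16.3 and 10.8 CPM in wild type libraries. The Dlx5-/- labelled range lies within that of wild type, and the Kat6a-/- labelled libraries lie below them. The difference between the homozygous groups was -1.62 (adjusted p = 0.00102, edgeR). Lrig3, a transmembrane protein with leucine-rich repeats, had the smallest difference of the 33 at -0.45 (adjusted p = 0.00348, edgeR), with 84.6 ± 6.74 CPM in Kat6a-/- labelled libraries, 106 ± 3.64 CPM in Dlx5-/- labelled libraries and 104 ± 2.34 CPM in wild type libraries (SD, n = 4 each). Ldhb, a lactate dehydrogenase subunit, differed by -0.58 (adjusted p = 0.013, edgeR) and Ak1, an adenylate kinase, by 0.66 (adjusted p = 0.0398, edgeR).

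**Figure D3:**
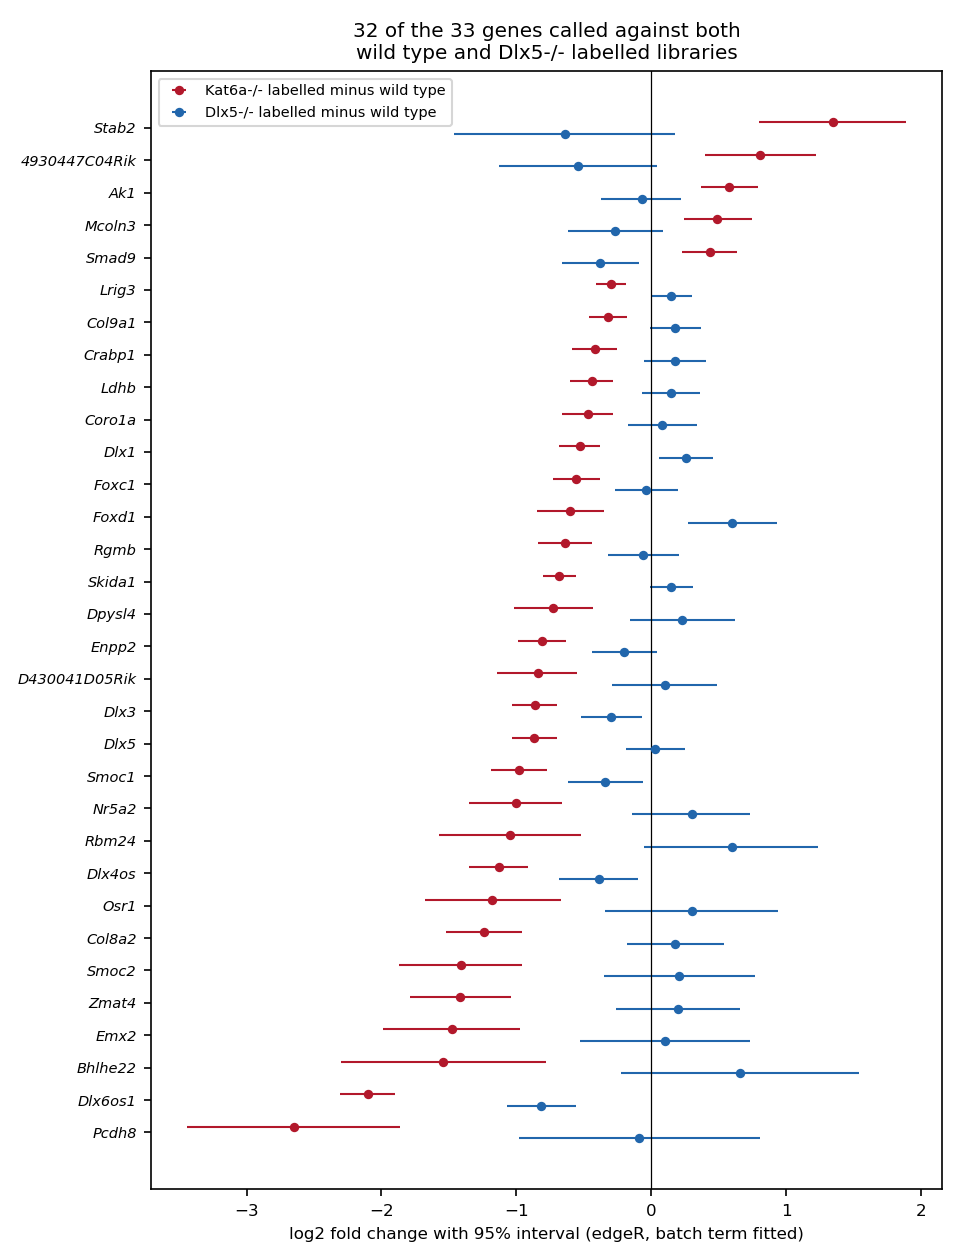
Log2 fold change against wild type (horizontal axis, with 95% intervals) of 32 of the 33 genes called against wild type and against Dlx5-/- labelled libraries, Kat6a-/- labelled in red above Dlx5-/- labelled in blue. The red points lie on the outer side of the blue ones for each gene, which the choice of these genes fixes, and 25 blue intervals hold 0. An interval that holds 0 does not show an unchanged gene.

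The other 189 genes called against wild type in Kat6a-/- labelled libraries were not called between the homozygous groups, and that does not show that loss of Dlx5 changes them alike. For 97 of the 222 the 95% interval of the difference held 0, and the median distance from estimate to interval bound was 0.26. Postn, which encodes the matrix protein periostin, had 44.0, 53.3, 45.2 and 53.9 CPM in Kat6a-/- labelled libraries, 35.3, 33, 38.3 and 34.5 CPM in Dlx5-/- labelled libraries and 28.3, 28.8, 28.9 and 27.6 CPM in wild type libraries. It was called higher than wild type in both, at 0.79 (adjusted p = 7.05e-08, edgeR) and 0.51 (adjusted p = 0.0403, edgeR), and the difference between them was 0.28 with an interval of 0.08 to 0.47 (adjusted p = 0.239, edgeR). Creb5, a transcription factor, was also called higher in both, at 1.00 in Kat6a-/- labelled libraries (adjusted p = 0.0108, edgeR) and 1.46 in Dlx5-/- labelled libraries (adjusted p = 0.0488, edgeR). The interval of the Creb5 difference was -1.03 to 0.09. Postn, Creb5 and Dlx6os1 were the 3 genes called against wild type in both groups. With no batch term the Postn difference between the homozygous groups was 0.48 and was called (adjusted p = 0.00234, edgeR).

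Others of the 189 had a fitted Dlx5-/- labelled effect of the same sign and at least 0.5 times the size of the Kat6a-/- labelled one. Nptx1, a secreted pentraxin of neurons, averaged 2.03 ± 0.599 CPM in Kat6a-/- labelled libraries, 6.00 ± 0.701 CPM in Dlx5-/- labelled libraries and 7.54 ± 1.29 CPM in wild type libraries (SD, n = 4 each). The fitted difference between the homozygous groups was -0.95 (adjusted p = 0.0595, edgeR). The measured ratio of mean CPM was 0.338, and the fitted batch effect of 0.61 makes the fitted difference smaller than that ratio. With no batch term the Nptx1 difference was -1.55 and was called (adjusted p = 0.000709, edgeR). Crispld1, a secreted protein, stood at 50.2 to 52.3 CPM in Kat6a-/- labelled libraries, 45.0 to 51.3 CPM in Dlx5-/- labelled libraries and 34.9 to 44.6 CPM in wild type libraries, and its difference between the homozygous groups had an interval of -0.12 to 0.32. Rpl30, a ribosomal protein gene whose near-identical copies make its count uncertain, had an interval of -0.42 to -0.01. The interval was -0.60 to 0.01 for Prnp, the prion protein gene, and -0.26 to 0.97 for Il1rl2, an interleukin receptor.

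The remaining 26 of the 59 calls were not called in Kat6a-/- labelled libraries against wild type. Cldn5, an endothelial tight junction gene, had 15.5, 18.6, 16.1 and 21.1 CPM in Kat6a-/- labelled libraries, 12.5, 13.7, 14.1 and 10.2 CPM in Dlx5-/- labelled libraries and 16.6, 17.6, 19.3 and 20.5 CPM in wild type libraries. Here the Dlx5-/- labelled libraries were the low ones, with -0.74 against wild type (adjusted p = 0.0488, edgeR). Nudt19, a nudix hydrolase, was likewise lower in them at -0.57 (adjusted p = 0.0488, edgeR). Zfp862-ps, a pseudogene whose reads may come from a related gene, was higher in them at 0.64 (adjusted p = 0.0346, edgeR). These 3 were the only ones of the 26 called in Dlx5-/- labelled libraries against wild type. With no batch term the call of Cldn5 between the homozygous groups held. Nudt19 was then at 0.25 (adjusted p = 0.289, edgeR) and Zfp862-ps at -0.28 (adjusted p = 0.27, edgeR), and neither was called. Col1a2, a chain of collagen I, averaged 230 ± 15.7 CPM in Kat6a-/- labelled libraries and 254 ± 31.7 CPM in Dlx5-/- labelled libraries (SD, n = 4 each). Its fitted difference of -0.56 (adjusted p = 0.0448, edgeR) was -0.14 without the batch term (adjusted p = 0.765, edgeR).

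Calls were also counted by position along the genome, and unevenness was not tested. Over all genes, 0.407% were called. Chromosome 6, which carries Dlx5, held 7 called genes of 698 tested (1%), chromosome 12 held 6 of 527 (1.14%) and chromosome 8, which carries Kat6a, held 3 of 740 (0.405%). Sfrp1 and Zmat4 lie 0.468 and 0.704 Mb from Kat6a, and they were the 2 called genes of 41 tested within 3 Mb of it, Kat6a not being called. Around Dlx5, 2 of 26 other tested genes within that distance were called, Dlx6os1 and Col1a2. Dlx5 itself was called and is not in that count. The part of the linked region in these differences was not tested.

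Every fitted difference contains the fitted batch effect. It was called for 5 genes (0.0345%), none of them among the 59. Its median size was 0.25 in the 59 and 0.07 over all genes. In 58 of the 59, or 98.3%, it had the sign of the fitted difference and so enlarged it, as against 72.8% of all genes, and Smoc1 was the exception. The median difference of the 59 was 0.79 fitted and 0.59 as a plain ratio of mean CPM on the log2 scale, and no gene changed sign. With no batch term 161 genes were called, of which 39 were among the 59. For Skida1, Dlx1 and Emx2 the batch effect was -0.02, -0.02 and -0.03, and the plain ratios were 0.571, 0.589 and 0.340.

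**Figure D4:**
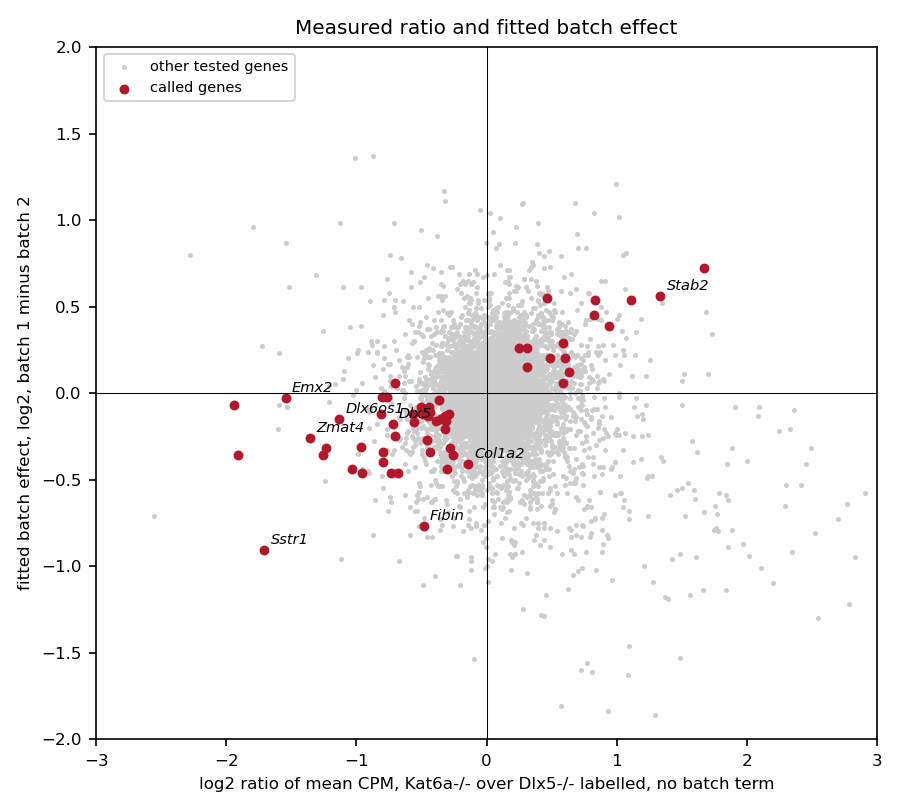
Log2 ratio of mean CPM, Kat6a-/- labelled over Dlx5-/- labelled libraries (horizontal axis), and the fitted batch effect, batch 1 minus batch 2 (vertical axis, log2). Red points are the 59 called genes, grey points are other tested genes, and 7 genes that were not called lie outside the axes. For 58 of the 59 called genes the fitted batch effect has the sign of the fitted difference, and Emx2 lies near 0 on the vertical axis.

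The number of calls rested on few bridging libraries. It was 19, 9 and 11 without the Kat6a heterozygous, the Dlx5 heterozygous or the double heterozygous group. Single libraries that moved it by more than 1.5 times were Dlx5 heterozygous replicates 4 and 2 (15 and 38 calls without each), double heterozygous replicates 1 and 3 (16 and 35), Kat6a heterozygous replicate 4 (17), Kat6a-/- labelled replicates 4 and 2 (23 and 33), Dlx5-/- labelled replicates 2 and 4 (24 and 36) and wild type replicate 4 (106). Skida1, Dlx6os1, Dlx5, Dlx1, Col8a2, Foxd1, Zmat4 and Lrig3 were called in all 38 other settings. A further 11 genes brought those called in at least 30 settings to 19, and no gene of the 59 was called in fewer than 10.

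**Figure D5:**
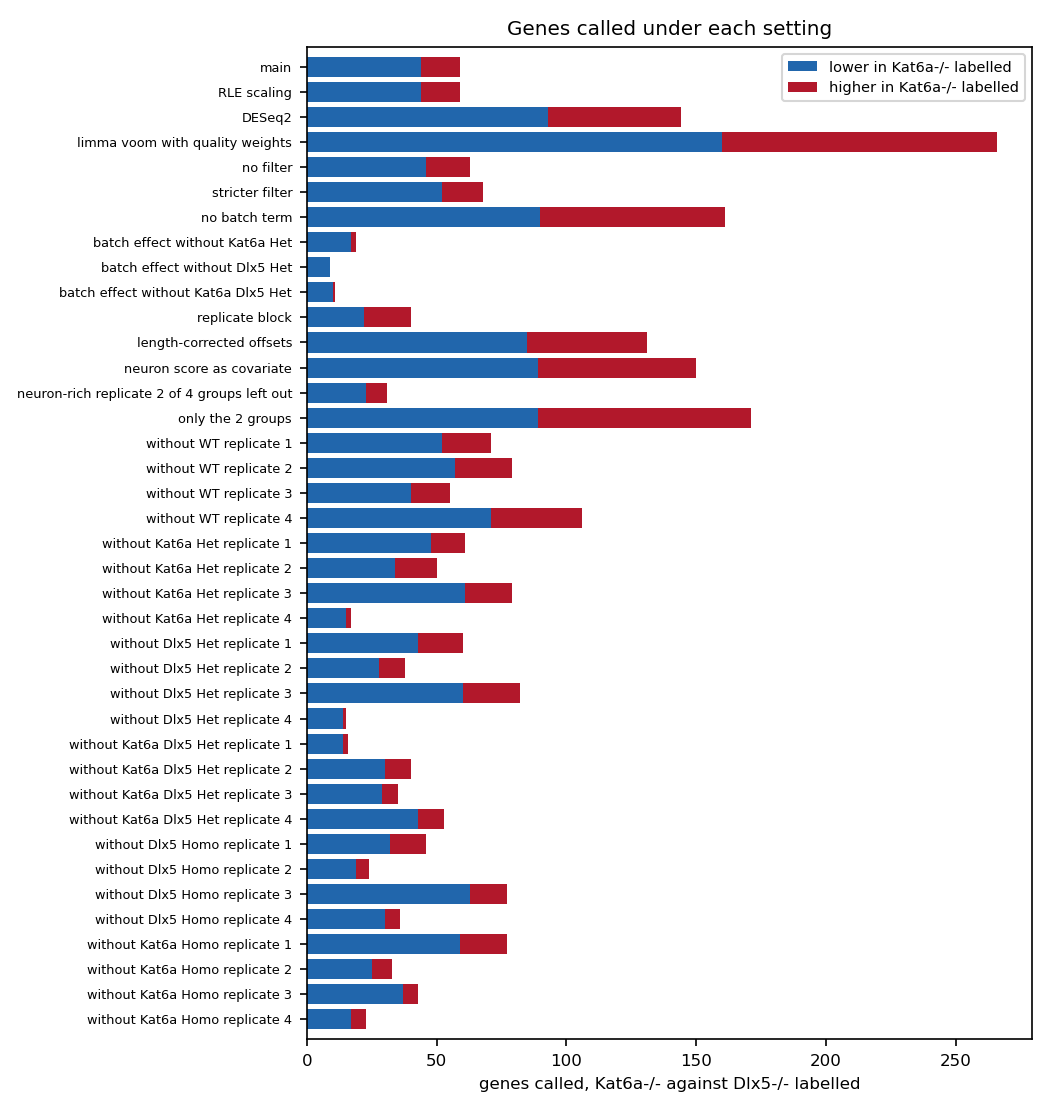
Number of genes called between Kat6a-/- labelled and Dlx5-/- labelled libraries (horizontal axis, from 0) under each setting (rows), split into lower (blue) and higher (red) in Kat6a-/- labelled libraries. The bars run from 9 without the Dlx5 heterozygous group to 266 with voom, beside 59 in the fit reported.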

How the data were processed

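RNA was made into stranded mRNA libraries (TruSeq), per the labels' protocols. CASAVA 1.8.2, featureCounts and build mm10 are named in the submitters' processing notes, and no source used here names the aligner or the strand setting. The authors deposited raw counts per gene. Entries with no gene identifier (568 of 27179, 0.182% to 0.259% of counts) were left out.

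Groups and batches are from the labels. A neuron score is the mean centred log2 CPM of the neuron and glia markers. Counts were tested with edgeR 4.0.16 in R 4.3.3 (filterByExpr, TMM, robust quasi-likelihood, 6 group means and a batch term over 24 libraries, 17 residual degrees of freedom). Intervals are 95%. Levels in measured CPM carry no batch correction. Alternatives were DESeq2 1.42.0, voom of limma 3.58.1, other scaling, filters, batch terms and offsets, and leaving out libraries. The procedure was run on simulated counts with changes planted in Kat6a-/- labelled libraries only. That simulation held no neuron-rich libraries, so it does not bear on how the calls depend on single libraries. Symbols and coordinates are from RefSeq.

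Genes named were Kat6a, Kat6b, the Dlx family, up to 12 largest called differences each way and up to 12 called against wild type too. Up to 8 more were called in Kat6a-/- labelled libraries against wild type and not between the homozygous groups. Their fitted Dlx5-/- labelled effect had the same sign and at least 0.5 times the size. The rest were those called in both groups against wild type, up to 4 called per gene list and the 5 lowest adjusted p. Of the genes this rule names, 1 is not reported here. Libraries compared, lists and rules were chosen with earlier results of these data known.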

Additional observations from a re-analysis of the deposited data

Results flagged for a closer look

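Values in 5 of the 108 groups of 4 libraries examined stood apart, where 1 sample lay far from the other 3 relative to the group's range. Chance flags about 1 group in 20. All 5 were Dlx5-/- labelled libraries. Replicate 4 had 16.8 CPM of Ctnnd2, a neuronal catenin, where the other 3 had 14.6 to 14.8 CPM. It also had 2.9 CPM of Bhlhe22, where the others had 1.57 to 1.72 CPM. Replicate 3 had 26.9 CPM of Nudt19, where the others had 20.9 to 21.5 CPM. Its Smoc2 level was 13.3 CPM, where the others had 17.6 to 18.4 CPM, and its Zmat4 level was 11 CPM, where the others had 14.5 to 15 CPM.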

How the results depend on the processing

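Between the homozygous groups, 59 genes were called. The count was 144 with DESeq2, 266 with voom, 161 with no batch term, 171 with only the 2 groups, 131 with length-corrected offsets, 150 with a neuron score as covariate and 31 without the neuron-rich replicate 2. It was 19, 9 and 11 without the Kat6a, Dlx5 or double heterozygous group. Leaving out 1 library at a time gave 15 to 106. The neuron-rich replicates left out here are replicate 2 of 4 groups, and double heterozygous replicates 3 and 4 stayed in. RLE scaling, no filter and a stricter filter gave 59, 63 and 68. Against wild type, the 222 calls of Kat6a-/- labelled libraries became 139 with voom, 83 without the neuron-rich replicates, 98 in batch 2 alone and 122 to 444 with 1 library left out. The 8 calls of Dlx5-/- labelled libraries became 38 with DESeq2, 17 with voom, 3, 1 and 0 without the Kat6a, Dlx5 or double heterozygous group, 13 with length offsets, 21 with the neuron covariate, 4 without the neuron-rich replicates and 0 to 16 with 1 library left out. Where edgeR called 0 without the double heterozygous group, 1053 genes had an unadjusted p under 0.05. The 33 genes called against both became 61 with DESeq2, 56 with voom, 77 with no batch term, 15, 8 and 9 without a heterozygous group, 61 with length offsets, 50 with the neuron covariate, 10 without the neuron-rich replicates and 10 to 44 with 1 library left out. The cause of these shifts was not tested.

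Deviations of same-numbered Kat6a-/- and Dlx5-/- labelled libraries correlated at 0.0665, 0.0508, 0.0145 and 0.0421, those of Kat6a-/- labelled and wild type libraries at 0.0949, 0.569, 0.149 and 0.303, and those of Dlx5-/- labelled and wild type libraries at -0.014, 0.137, -0.105 and -0.0646. In no comparison did all 4 pairs pass 0.1, so the numbers were not taken to pair the libraries. With the replicate number as a block, 40 genes were called between the homozygous groups (27 of the 59), 292 (217 of the 222) and 8 (3 of the 8) against wild type, and 24 (20 of the 33) against both. With no batch term 39 of the 59 were still called. Over the alternatives, 2240 values of the 59 called genes kept their sign, 1565 of them called and 675 not. Of 494 values of named genes not called, 18 became called and 4 changed sign: with no batch term, and with only the 2 groups, Kat6b was at 0.02 and Creb5 at 0.17, neither called. At low counts intervals were wide, as for Sstr1 at -3.97 to -1.61.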

Other observations

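Some brain, Hox and leukocyte genes, picked with their values in view, differed from wild type in Kat6a-/- labelled libraries and were not called between the homozygous groups. Mpo, myeloperoxidase of granulocyte precursors, averaged 13.3 CPM in Kat6a-/- labelled libraries, 2.19 CPM in Dlx5-/- labelled libraries and 3.15 CPM in wild type libraries, with a difference between the homozygous groups of 1.29 (adjusted p = 0.0595, edgeR). Six3, a homeobox gene of the eye and forebrain, averaged 0.374 CPM in Kat6a-/- labelled libraries, 2.20 CPM in Dlx5-/- labelled libraries and 2.32 CPM in wild type libraries, with a difference of -1.73 (adjusted p = 0.148, edgeR). Hoxb3, an anterior Hox gene, averaged 2.30 CPM in Kat6a-/- labelled libraries, 5.06 CPM in Dlx5-/- labelled libraries and 4.57 CPM in wild type libraries, with a difference of -1.05 (adjusted p = 0.222, edgeR). Erythroid markers summed to 2410 to 7300 CPM in Kat6a-/- labelled libraries, 2321 to 4864 CPM in Dlx5-/- labelled libraries and 1921 to 4813 CPM in wild type libraries.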
